A study of Mus musculus with 35 samples.

Results

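Integrins are the receptors with which cells hold on to the extracellular matrix, and the mRNA levels of their chains and of the proteins that tie them to actin were followed here while mouse embryonic stem (ES) cells were driven towards primitive endoderm (PrE) by GATA6. All genes with an Itga or Itgb symbol were taken, together with a fixed list of adhesion partners, which gave 40 genes of the 44853 in the induction table. Of these, 26 encode integrin chains (18 alpha and 8 beta) and 14 encode talins, kindlins, vinculin, ILK, PINCH and parvin proteins, focal adhesion kinase, paxillin, zyxin and dystroglycan. The rule used names only, but the members were chosen with earlier results of these data known.

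The cells were KH2 ES cells that carry a GATA6-3×HA transgene switched on by doxycycline (Dox), and the cells at 0 h carried the same transgene. They grew on mouse embryonic fibroblast feeders in serum and LIF, were left without Dox or received 1 µg/mL Dox for 16, 24, 48, 72, 96 or 168 h (3 libraries each), and feeders were depleted by letting them stick to plastic before lysis. XEN cells (2 libraries), a line from the extra-embryonic endoderm of another mouse strain without the transgene, served as the PrE reference. They also grew on feeders, in serum medium for which the study lists no LIF, and no feeder depletion is described for their RNA. Cell line, strain and medium therefore cannot be told apart from cell type in any comparison with them. In a second experiment, cells of a single inducible clone were nucleofected with a control siRNA (siCTL) or an siRNA pool against Oct4 (siOct4), the product of Pou5f1, and kept in 1 µg/mL Dox for 48 h, with 6 libraries of each. Values are TPM, which are scaled for transcript length, so levels can be set side by side between genes, but they keep no record of sequencing depth.

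An integrin is a pair of 1 alpha and 1 beta chain, and the alpha chain largely sets the ligand: the alpha3 and alpha6 chains pair with beta1 to bind laminin, alpha5 with beta1 binds fibronectin, and alphav with beta1, beta3, beta5, beta6 or beta8 binds matrix proteins with an RGD sequence. Inside the cell, talins and kindlins bind the beta tail and activate the receptor, vinculin and the ILK, PINCH and parvin complex link it to actin, and focal adhesion kinase, paxillin and zyxin gather at the resulting adhesions. Primitive endoderm and its parietal derivative are known for laying down a thick basement membrane of laminin and collagen IV, and adhesion to such matrix is known to take part in their sorting and spreading.

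Promoter sequence is shown for 3 chains that rose (Itga5, Itgav and Itgb1), for the adaptor Vcl and for the chain that fell first (Itgb7), as bases upstream of the RefSeq start and outside annotated exons (GRCm38.p6, 5′ to 3′ on the strand of the gene). Capitals mark matches, on either strand, to GATAA (a core letter string of GATA sites), GGAATG (a core string of TEAD sites) or the CArG box (the site of serum response factor). The windows are chr15:103366792-103367041 on the minus strand, chr2:83724147-83724396 on the plus strand, chr8:128685404-128685653 on the plus strand, chr14:20929148-20929397 on the plus strand and chr15:102231945-102232185 on the minus strand.
Itga5: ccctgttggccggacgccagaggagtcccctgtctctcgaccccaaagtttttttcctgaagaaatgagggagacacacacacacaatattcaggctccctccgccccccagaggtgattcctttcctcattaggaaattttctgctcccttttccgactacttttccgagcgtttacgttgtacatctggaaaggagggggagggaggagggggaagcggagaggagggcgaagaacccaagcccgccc
Itgav: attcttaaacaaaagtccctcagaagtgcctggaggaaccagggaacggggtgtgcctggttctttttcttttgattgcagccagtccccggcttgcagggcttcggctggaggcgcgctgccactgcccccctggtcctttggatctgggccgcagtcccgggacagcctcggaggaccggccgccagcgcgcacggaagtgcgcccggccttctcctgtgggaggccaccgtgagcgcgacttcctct
Itgb1: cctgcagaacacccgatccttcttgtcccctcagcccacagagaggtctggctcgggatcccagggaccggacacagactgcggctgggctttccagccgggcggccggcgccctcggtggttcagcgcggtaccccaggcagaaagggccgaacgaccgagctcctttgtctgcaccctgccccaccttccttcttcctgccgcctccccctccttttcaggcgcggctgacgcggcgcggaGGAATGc
Vcl: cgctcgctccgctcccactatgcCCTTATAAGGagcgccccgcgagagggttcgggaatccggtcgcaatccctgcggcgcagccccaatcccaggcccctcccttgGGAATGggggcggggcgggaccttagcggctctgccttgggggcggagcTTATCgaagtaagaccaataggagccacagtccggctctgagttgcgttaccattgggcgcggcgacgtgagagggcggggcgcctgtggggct
Itgb7: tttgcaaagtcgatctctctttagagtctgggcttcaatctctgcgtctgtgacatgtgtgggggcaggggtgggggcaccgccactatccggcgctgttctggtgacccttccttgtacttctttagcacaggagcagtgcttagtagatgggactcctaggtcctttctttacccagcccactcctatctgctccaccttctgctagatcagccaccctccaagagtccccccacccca

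Only Vcl among these held all of the searched strings, with the CArG box beginning 227 bases, GGAATG 143 bases and the reverse of GATAA 94 bases before the start, none of them overlapping. Itgb1 held GGAATG 7 bases before its start, and the windows of Itga5, Itgav and Itgb7 held none of the searched strings. RefSeq windows were matched for 27 of the 40 genes (33 windows). Within the 250 bases upstream of the start, 3 of 33 member windows held GATAA against 22.6% of all 32851 windows, 3 held GGAATG against 12.6%, and 3 held a CArG box (Itgb6, Vcl and Fermt2) against 1.47%. Windows were not matched for Itga6, Itga7, Itgad, Itgae, Itgal, Itgb2, Itgb3, Itgb4, Tln2, Lims2, Parva, Ptk2 and Pxn. A match of letters does not show that a factor binds.

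Among the 40 genes, 30 reached a mean of 1 TPM in at least 1 group and could be tested. The other 10 (Itga2, Itga4, Itgad, Itgae, Itgam, Itgax, Itgb2, Itgb3, Itgb6 and Itgb8) stayed below a mean of 1 TPM in every group. They include the leukocyte chains of the alphad, alphaE, alphaM, alphaX and beta2 type and the beta partners of alphav other than beta1 and beta5. Induction of Gata6 and the starting state were checked first. Gata6 was at 0.193, 0.223 and 0.375 TPM at 0 h and at 129, 134 and 138 TPM at 16 h. According to the study, such levels hold both endogenous and transgene mRNA, so they do not show the transgene alone. Pou5f1 was between 1558 and 1833 TPM at 0 h and between 39.1 and 112 TPM at 168 h. At 168 h the 15 PrE markers listed were all higher and 11 of 12 ES cell markers were lower. Of 9 parietal endoderm markers 7 were higher and 1 lower, and of 11 visceral ones 10 were higher and 1 lower. Among all genes, 22.6% were higher and 16.5% lower. Of the visceral markers that rose, Afp, Apoa1, Apoa4 and Apob reached means of only 2.52, 2.94, 2.55 and 3.29 TPM. Means of the others that rose ran from 7.94 to 313 TPM. The mean summed level of the visceral list fell after 96 h, from 926 to 548 TPM.

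Adhesion genes were called changed at a limma adjusted p under 0.05 and a change above 1 on the log2(TPM + 1) scale. All time points and XEN cells were compared with the same 0 h libraries, so the calls are not independent. At 16 h none of the 30 tested members was higher (1.97% of all 15057 genes were) and 1 was lower (0.804%), and at 24 h none was higher (3.24%) and 1 was lower (2.44%). In both cases the lower gene was Itgb7. At the unadjusted level, limma gave p under 0.05 for 12 of 30 members at 16 h (24.7% of all genes) and 18 of 30 at 24 h (38.6%). At 48 h, 3 were higher (9.14% of all genes) and 4 lower (7.26%), at 72 h 7 were higher (14.7%) and 6 lower (11.5%), and at 96 h the rises numbered 8 (15.4%) and the falls 7 (14.1%). By 168 h, 10 were higher (22.6%) and 5 lower (16.5%). In XEN cells against 0 h, 11 were higher (18.9%) and 4 lower (18.7%).

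**Figure D1:**
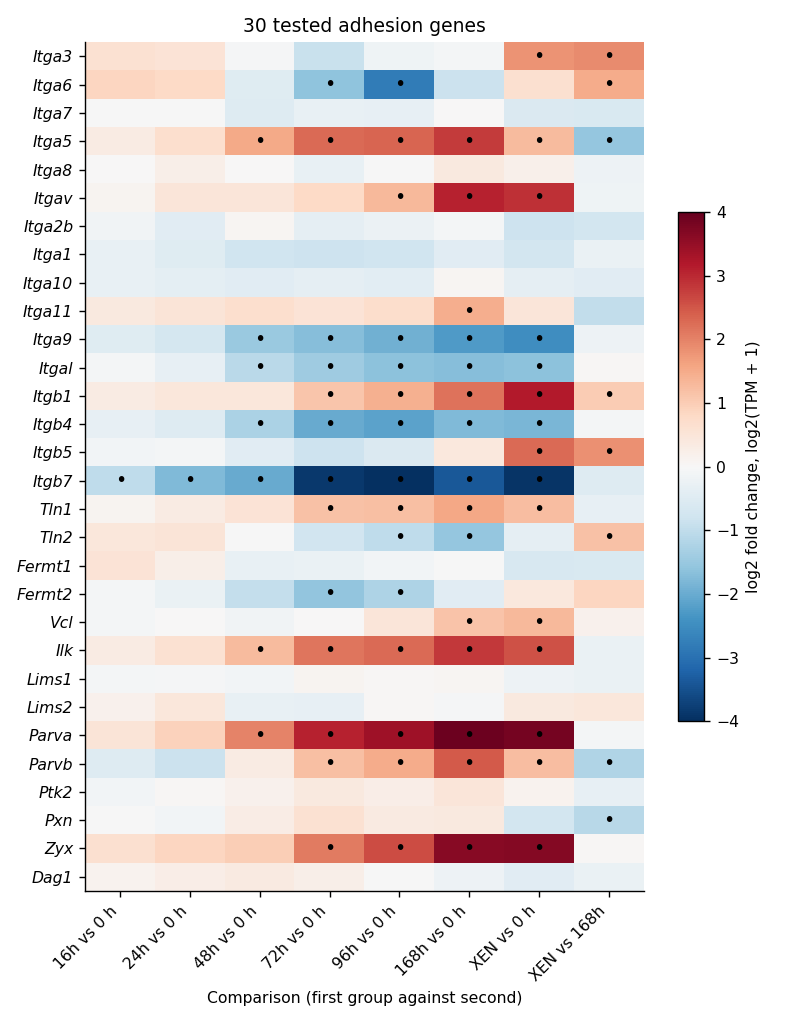
Log2 fold change on the log2(TPM + 1) scale of the 30 tested adhesion genes (rows, ordered by role) in each comparison of the induction series (columns), with a dot where the gene was called. Itgb7 carries a dot from 16 h on, and the dots of Ilk, Parva, Itga5 and Zyx begin at 48 or 72 h and continue to 168 h.

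By the time of the first lasting call, 7 genes rose from 48 or 72 h onwards (Itga5, Itgb1, Tln1, Ilk, Parva, Parvb and Zyx) and 3 rose at 96 h or later (Itgav, Itga11 and Vcl). Itgb7 fell from 16 h, Itga9, Itgal and Itgb4 fell from 48 h, and Tln2 fell from 96 h, where its call is lost without the first 0 h library or the second 96 h library (log2 fold change -0.95 and -0.93). Itga6 and Fermt2 fell at 72 and 96 h and were no longer called at 168 h. The remaining 13 tested members were called at no time point. Over the 30 tested members the median log2 fold change at 168 h was 0.08, beside 0.09 over all genes.

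The laminin-binding chain Itga6 (chromosome 2, 71745616 to 71858416, plus strand, mm10) was the most abundant alpha chain of ES cells and had the most varied course. It was at 88.3, 85.2 and 88.8 TPM at 0 h, at 155, 155 and 165 TPM at 16 h and at 145, 146 and 171 TPM at 24 h. It then stood at 60.8, 54.6 and 71.8 TPM at 48 h, 33.9, 30.1 and 21.5 TPM at 72 h and 10.3, 12.3 and 13.1 TPM at 96 h. All early Dox libraries were above those at 0 h, and all from 48 h on were below them. At 16 h the difference from 0 h was below the fold minimum (log2 fold change 0.85, SE 0.158, limma adjusted p = 0.000934). At 96 h Itga6 had fallen (log2 fold change -2.79, SE 0.158, limma adjusted p = 1.04e-11).

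Between 96 and 168 h Itga6 came back. Its libraries were at 59.3, 50.99 and 36.2 TPM at 168 h and at 137 and 134 TPM in XEN cells. The 168 h libraries lay above all 96 h libraries and below all 0 h libraries, while both XEN libraries lay above 0 h. The rise from 96 to 168 h passed the test (log2 fold change 1.93, SE 0.158, limma adjusted p = 2.61e-08). XEN cells were also higher than 168 h (log2 fold change 1.48, SE 0.176, limma adjusted p = 1.45e-06). The difference between 168 h and 0 h stayed within the fold minimum (log2 fold change -0.86, SE 0.158, limma adjusted p = 6.92e-05).

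From 96 to 168 h, 4 members rose (5.23% of all genes did) and none fell (2.44%). Beside Itga6 these were Itgav (log2 fold change 1.80, SE 0.126, limma adjusted p = 4.31e-09), Itgb5 (log2 fold change 1.01, SE 0.0953, limma adjusted p = 1.51e-07) and Zyx (log2 fold change 1.03, SE 0.137, limma adjusted p = 8.59e-06). This comparison was added after the time courses had been seen.

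Itga3, the other main laminin-binding chain, was at 21.3, 19.4 and 20.5 TPM at 0 h and 20.7, 22.8 and 15.2 TPM at 168 h, with overlapping groups. Between these times it moved without being called. At 16 h it was at 30.7, 35.3 and 29.4 TPM, above 0 h (log2 fold change 0.61, SE 0.170, limma adjusted p = 0.0206). At 72 h it was at 9.32, 7.99 and 16.1 TPM, below 0 h. In XEN cells it was at 74.4 and 72.7 TPM, above every other library of the series. It was higher in XEN cells than at 0 h (log2 fold change 1.80, SE 0.190, limma adjusted p = 6.93e-08) and than at 168 h (log2 fold change 1.88, SE 0.190, limma adjusted p = 1.88e-07). Itga7, a laminin-binding chain known from muscle, stayed between 0.527 and 2.37 TPM.

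The fibronectin receptor chain Itga5 (chromosome 15, 103344286 to 103366763, minus strand, mm10) rose through the course. It was at 18.1, 17.6 and 18.9 TPM at 0 h, 36.7, 32.7 and 22.3 TPM at 24 h and 57.9, 59.3 and 45.3 TPM at 48 h. It reached 96.4, 96.3 and 80.97 TPM at 72 h, 89.4, 90.6 and 105 TPM at 96 h and 135, 146 and 121 TPM at 168 h. Every library from 16 h on lay above the 0 h libraries. The rise was called from 48 h (log2 fold change 1.51, SE 0.140, limma adjusted p = 2.93e-08) and was larger at 168 h (log2 fold change 2.81, SE 0.140, limma adjusted p = 8.97e-13). XEN cells held 46.4 and 44.6 TPM, above 0 h but below every library from 72 to 168 h, and lower than at 168 h by the test (log2 fold change -1.53, SE 0.156, limma adjusted p = 2.03e-07).

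Itgav (chromosome 2, 83724397 to 83806916, plus strand, mm10), the chain of the RGD-binding alphav receptors, rose late. It was at 12.04, 9.98 and 11.9 TPM at 0 h, 21.3, 18.5 and 21.7 TPM at 72 h and 32.4, 28.2 and 26.5 TPM at 96 h. At 168 h it was at 97.8, 101 and 112 TPM and in XEN cells at 91.3 and 93.8 TPM. The 168 h and XEN libraries stood well apart from all earlier ones. The rise over 0 h was called at 96 h (log2 fold change 1.29, SE 0.126, limma adjusted p = 2.78e-08) and at 168 h (log2 fold change 3.09, SE 0.126, limma adjusted p = 4.80e-14). The other RGD-binding chains did not reach 4 TPM, with Itga8 between 0.152 and 1.71 TPM and Itga2b, the platelet chain, between 0.639 and 3.73 TPM.

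Of the collagen-binding chains, Itga11 alone was called. It was at 0.660, 0.386 and 0.517 TPM at 0 h, 3.99, 4.28 and 1.72 TPM at 168 h and 0.950 and 1.27 TPM in XEN cells. The 168 h libraries lay above those at 0 h, but the third one was less than 2 TPM (log2 fold change 1.45, SE 0.317, limma adjusted p = 0.000396). Itga1 and Itga10 stayed between 0.173 and 2.26 TPM. Itga9, which binds tenascin and osteopontin, was at 6.61, 4.22 and 6.88 TPM at 0 h, 1.09, 1.62 and 1.65 TPM at 48 h and 0.671, 0.244 and 0.335 TPM at 168 h. No 48 h library reached the lowest 0 h library, and Itga9 had fallen by 48 h (log2 fold change -1.48, SE 0.191, limma adjusted p = 2.28e-06) and further by 168 h (log2 fold change -2.27, SE 0.191, limma adjusted p = 2.08e-09).

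Itgal, the alpha chain of the leukocyte receptor LFA-1, was low in ES cells and was lost. It was at 2.64, 2.04 and 2.11 TPM at 0 h and 0.599, 0.375 and 0.650 TPM at 48 h, and at 168 h it was listed at 0.0102 TPM in 1 library and at 0 in the others. The fall was called from 48 h (log2 fold change -1.08, SE 0.107, limma adjusted p = 7.60e-08). Markers of other cell types were read beside it. Of 10 leukocyte markers 5 could be tested, and at 168 h none was higher (22.6% of all genes were) and 2 were lower (16.5%). Ptprc, which encodes the pan-leukocyte antigen CD45, did not exceed 0.0711 TPM in any library, and the sum over the list, mostly Laptm5 and Cd68, was 70.2 to 107 TPM at 0 h and 25.4 to 42.0 TPM at 168 h. Of 7 platelet and megakaryocyte markers, 1 could be tested and was not called at 168 h, and Gp9 was listed at 0 in every library. Of 7 endothelial markers 5 could be tested, with 3 higher (22.6% of all genes) and 2 lower (16.5%) at 168 h. What part such cells have in the level of Itgal was not tested.

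**Figure D2:**
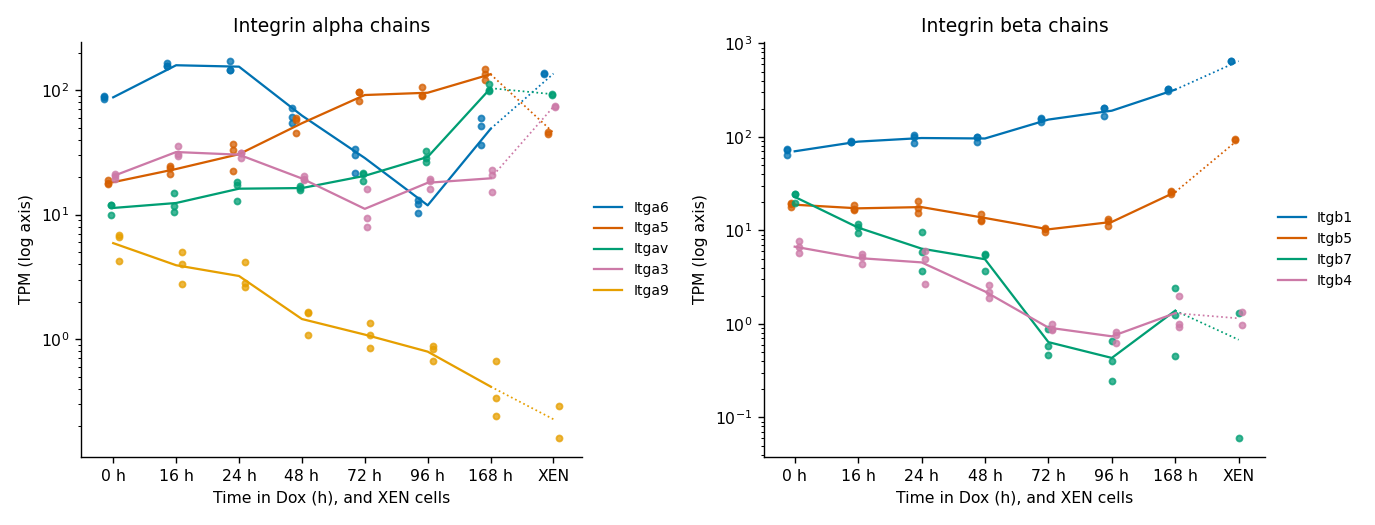
TPM (log axis) of the main integrin alpha chains (left) and beta chains (right) in each library (points) by time in Dox and in XEN cells, with solid lines through the group means of the time course and dotted lines to XEN cells, a different line. Itga6 falls to 10.3 to 13.1 TPM at 96 h while Itga5 climbs, and Itgb7 drops below 1 TPM at 72 h.

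Among beta chains, Itgb1 (chromosome 8, 128685654 to 128733200, plus strand, mm10), the partner of most matrix-binding alpha chains, was the most abundant at every time. It was at 73.5, 64.8 and 72.3 TPM at 0 h, 89.3, 87.6 and 90.3 TPM at 16 h and 145, 157 and 158 TPM at 72 h. At 168 h it was at 326, 325 and 310.3 TPM and in XEN cells at 647 and 646 TPM. Every Dox library lay above the 0 h libraries, and the XEN libraries lay above all others. Itgb1 rose from 72 h (log2 fold change 1.12, SE 0.0825, limma adjusted p = 6.24e-10) to 168 h (log2 fold change 2.18, SE 0.0825, limma adjusted p = 1.64e-14), and XEN cells were higher again than 168 h (log2 fold change 1.01, SE 0.0922, limma adjusted p = 4.77e-08), a difference just past the fold minimum.

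Itgb7, a chain known from leukocyte homing receptors, was the second beta chain of ES cells and the first member to fall. It was at 24.4, 24.5 and 19.7 TPM at 0 h, 9.43, 11.7 and 10.999 TPM at 16 h and 3.71, 5.91 and 9.54 TPM at 24 h. By 72 h it was at 0.872, 0.578 and 0.466 TPM, at 168 h at 0.458, 2.45 and 1.26 TPM and in XEN cells at 1.29 and 0.0607 TPM. All libraries from 16 h on lay below the lowest 0 h library. The 16 h call was narrow (log2 fold change -1.02, SE 0.308, limma adjusted p = 0.0322) and is lost when any of 5 libraries is left out (adjusted p up to 0.109). The fall at 72 h was large (log2 fold change -3.87, SE 0.308, limma adjusted p = 1.78e-09), as it was at 168 h (log2 fold change -3.40, SE 0.308, limma adjusted p = 6.16e-09). Its partner chains Itga4 and Itgae were below 1 TPM throughout.

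Itgb4, the partner of alpha6 in hemidesmosomes, was at 6.62, 7.79 and 5.70 TPM at 0 h, 1.90, 2.59 and 2.18 TPM at 48 h and 0.987, 2.0001 and 0.923 TPM at 168 h. All 48 h libraries lay below all 0 h libraries, and the fall was called from 48 h (log2 fold change -1.25, SE 0.201, limma adjusted p = 3.12e-05). Itgb5, the vitronectin-binding partner of alphav, was at 19.7, 18.99 and 17.9 TPM at 0 h, 9.70, 10.4 and 10.7 TPM at 72 h and 24.6, 26.7 and 25.8 TPM at 168 h. In XEN cells it was at 93.3 and 95.6 TPM, apart from all other libraries. Itgb5 was called in XEN cells against 0 h (log2 fold change 2.27, SE 0.107, limma adjusted p = 4.99e-13) and against 168 h (log2 fold change 1.84, SE 0.107, limma adjusted p = 8.03e-11), and not at any Dox time against 0 h.

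Set against one another, the chains exchanged places. Summed alpha chain TPM was 154 ± 5.39 TPM (SD, n = 3) at 0 h, 239.5 ± 7.67 TPM (SD, n = 3) at 16 h, 243 ± 4.16 TPM (SD, n = 3) at 24 h, 161 ± 3.58 TPM (SD, n = 3) at 48 h, 161 ± 5.45 TPM (SD, n = 3) at 96 h, 317 ± 20.04 TPM (SD, n = 3) at 168 h and 352 ± 2.45 TPM (SD, n = 2) in XEN cells. Itga6 held 56.9% ± 0.822 (SD, n = 3) of it at 0 h, 7.35% ± 0.742 (SD, n = 3) at 96 h, 15.3% ± 3.03 (SD, n = 3) at 168 h and 38.5% ± 0.348 (SD, n = 2) in XEN cells. Itga5 held 11.8% ± 0.310 (SD, n = 3) at 0 h, 58.9% ± 3.47 (SD, n = 3) at 96 h, 42.2% ± 1.49 (SD, n = 3) at 168 h and 12.9% ± 0.272 (SD, n = 2) in XEN cells. The leading alpha chain was Itga6 in every library from 0 to 24 h, Itga5 in every library from 72 to 168 h, and Itga6 again in both XEN libraries, while at 48 h the levels of Itga6 and Itga5 overlapped. Itgav went from 7.34% ± 0.504 (SD, n = 3) to 32.8% ± 4.38 (SD, n = 3) at 168 h and stood at 26.3% ± 0.697 (SD, n = 2) in XEN cells. Itga3 held 13.3% ± 0.234 (SD, n = 3) at 0 h, 6.13% ± 0.871 (SD, n = 3) at 168 h and 20.9% ± 0.197 (SD, n = 2) in XEN cells.

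Among beta chains, a single one came to hold most of the TPM. Their summed TPM was 119 ± 4.85 TPM (SD, n = 3) at 0 h, 350.4 ± 9.34 TPM (SD, n = 3) at 168 h and 743 ± 0.683 TPM (SD, n = 2) in XEN cells. Itgb1 held 58.8% ± 3.31 (SD, n = 3) of it at 0 h and 91.5% ± 0.762 (SD, n = 3) at 168 h, while Itgb7 went from 19.1% ± 2.05 (SD, n = 3) to 0.394% ± 0.278 (SD, n = 3). In XEN cells Itgb1 held 86.9% ± 0.163 (SD, n = 2) and Itgb5 12.7% ± 0.206 (SD, n = 2). In these bulk libraries, fewer cells of a type and less RNA per cell cannot be told apart, so a share describes the culture and not a single cell.

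**Figure D3:**
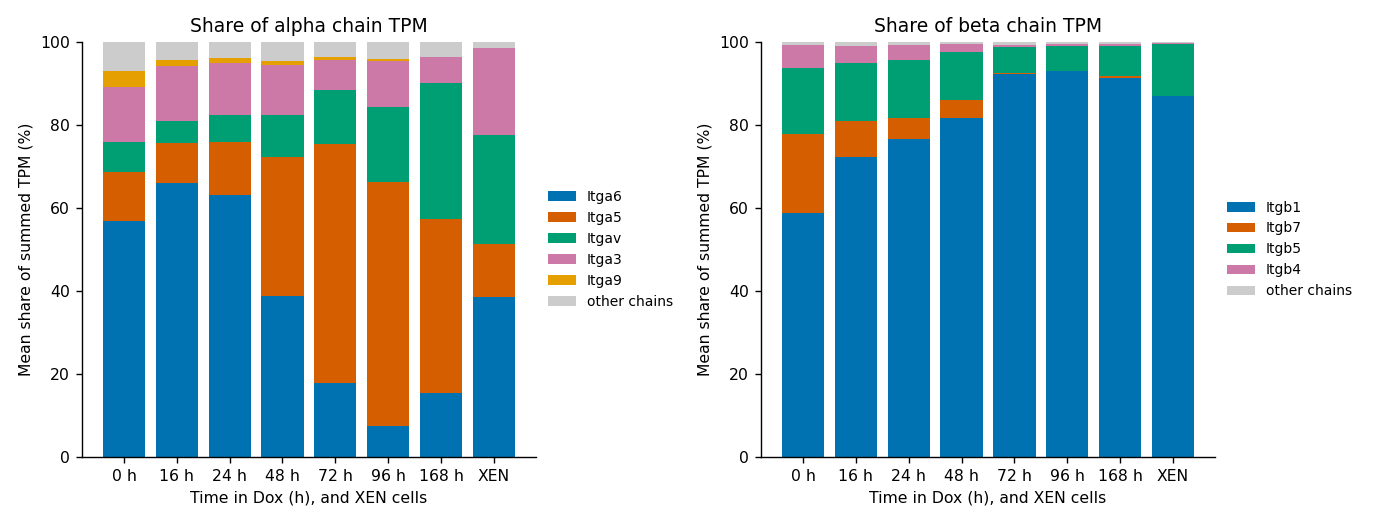
Mean share (percent) of the summed alpha chain TPM (left) and beta chain TPM (right) held by each chain, by time in Dox and in XEN cells, with chains not named in the legend pooled as other chains. Itga6 shrinks from 56.9% at 0 h to 7.35% at 96 h and holds 38.5% in XEN cells, and Itgb1 widens from 58.8% to 91.5% at 168 h.

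Of the proteins that activate integrins, the talins moved in opposite directions. Tln1, the widely expressed talin, was at 27.1, 28.04 and 36.2 TPM at 0 h, 75.6, 71.5 and 62.2 TPM at 72 h and 81.9, 93.1 and 96.7 TPM at 168 h. Tln2 was at 11.5, 9.61 and 10.2 TPM at 0 h, 15.2, 14.6 and 15.9 TPM at 24 h and 3.75, 2.73 and 2.33 TPM at 168 h. At 168 h all Tln1 libraries lay above and all Tln2 libraries below those at 0 h. Tln1 rose (log2 fold change 1.55, SE 0.101, limma adjusted p = 4.56e-11) and Tln2 fell (log2 fold change -1.55, SE 0.129, limma adjusted p = 1.95e-09). In XEN cells Tln2 was at 7.57 and 8.13 TPM, higher than at 168 h (log2 fold change 1.18, SE 0.145, limma adjusted p = 2.00e-06).

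Fermt2, which encodes kindlin-2, fell in the middle of the course. It was at 59.97, 53.9 and 62.6 TPM at 0 h, 14.9, 18.98 and 23.6 TPM at 72 h and 45.2, 36.9 and 45.9 TPM at 168 h. All 72 h libraries lay below all 168 h libraries, and both groups lay below 0 h. The fall was called at 72 h (log2 fold change -1.59, SE 0.117, limma adjusted p = 5.90e-10) and at 96 h (log2 fold change -1.24, SE 0.117, limma adjusted p = 1.68e-08). In XEN cells Fermt2 was at 79.1 and 77.4 TPM, above every other library. Fermt1 (kindlin-1) stayed between 0.0101 and 2.55 TPM. Vcl, which encodes vinculin, was at 28.1, 24.2 and 25.6 TPM at 0 h, 21.2, 22.5 and 36.8 TPM at 72 h and 53.5, 61.6 and 61.1 TPM at 168 h. It was higher at 168 h (log2 fold change 1.15, SE 0.136, limma adjusted p = 2.87e-07), a call that falls below the fold minimum after median-of-ratios rescaling (0.97) or removal of the gene length trend (0.85).

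The ILK, PINCH and parvin complex rose in its kinase-like and parvin parts. Ilk, its pseudokinase centre, was at 31.1, 24.98 and 30.3 TPM at 0 h, 71.1, 76.7 and 63.8 TPM at 48 h and 203, 208 and 212 TPM at 168 h. Parva was at 3.40, 3.09 and 4.06 TPM at 0 h, 18.6, 18.5 and 13.6 TPM at 48 h and 60.1, 64.3 and 77.04 TPM at 168 h. For both genes the 48 h libraries lay between those at 0 h and 168 h, without overlap. Parva, which binds actin, showed the largest log2 rise of the members at 168 h (log2 fold change 3.91, SE 0.142, limma adjusted p = 9.10e-15), and Ilk rose from 48 h (log2 fold change 1.27, SE 0.0934, limma adjusted p = 1.35e-09) to 168 h (log2 fold change 2.82, SE 0.0934, limma adjusted p = 2.43e-15). In XEN cells Ilk was at 177 and 171 TPM and Parva at 65.3 and 59.97 TPM, within a log2 difference of 1 from 168 h.

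Parvb, the second parvin, first stood lower and then rose. It was at 40.4, 41.97 and 36.2 TPM at 0 h, 19.2, 21.7 and 23.3 TPM at 24 h and 102, 105 and 72.1 TPM at 72 h. At 168 h it was at 214, 200.4 and 247 TPM and in XEN cells at 92.5 and 95.7 TPM. The 24 h libraries lay below all others and the 168 h libraries above all others. At 24 h the difference stayed within the fold minimum (log2 fold change -0.86, SE 0.124, limma adjusted p = 3.18e-05), at 168 h Parvb had risen (log2 fold change 2.45, SE 0.124, limma adjusted p = 1.19e-12), and XEN cells were lower than 168 h (log2 fold change -1.21, SE 0.139, limma adjusted p = 8.93e-07). Lims1 (PINCH1), the remaining part of the complex, was between 16.8 and 24.3 TPM in every library and was not called in any comparison. Lims2 (PINCH2) stayed between 0.0610 and 2.11 TPM.

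Zyx, which encodes the actin-regulating LIM protein zyxin, was at 13.7, 9.999 and 15.4 TPM at 0 h, 24.9, 29.2 and 24.5 TPM at 48 h and 57.4, 54.5 and 60.7 TPM at 72 h. It was at 82.1, 87.4 and 80.5 TPM at 96 h, 155, 166 and 194 TPM at 168 h and 178 and 173 TPM in XEN cells. Each of these groups lay above the ones before it, except that XEN cells fell within the range of 168 h. The rise was called from 72 h (log2 fold change 2.08, SE 0.137, limma adjusted p = 1.21e-10) and was larger at 168 h (log2 fold change 3.63, SE 0.137, limma adjusted p = 1.49e-14). Ptk2 (focal adhesion kinase) was between 26.5 and 46.4 TPM and was not called. Pxn (paxillin) was at 31.5, 37.6 and 33.8 TPM at 168 h and 14.7 and 15.9 TPM in XEN cells, which were lower (log2 fold change -1.11, SE 0.168, limma adjusted p = 2.36e-05), a call that falls below the fold minimum after median-of-ratios rescaling (-0.95) or removal of the gene length trend (-0.93). Dag1, whose product dystroglycan binds laminin independently of integrins, was between 27.0 and 51.4 TPM and was not called in any comparison.

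**Figure D4:**
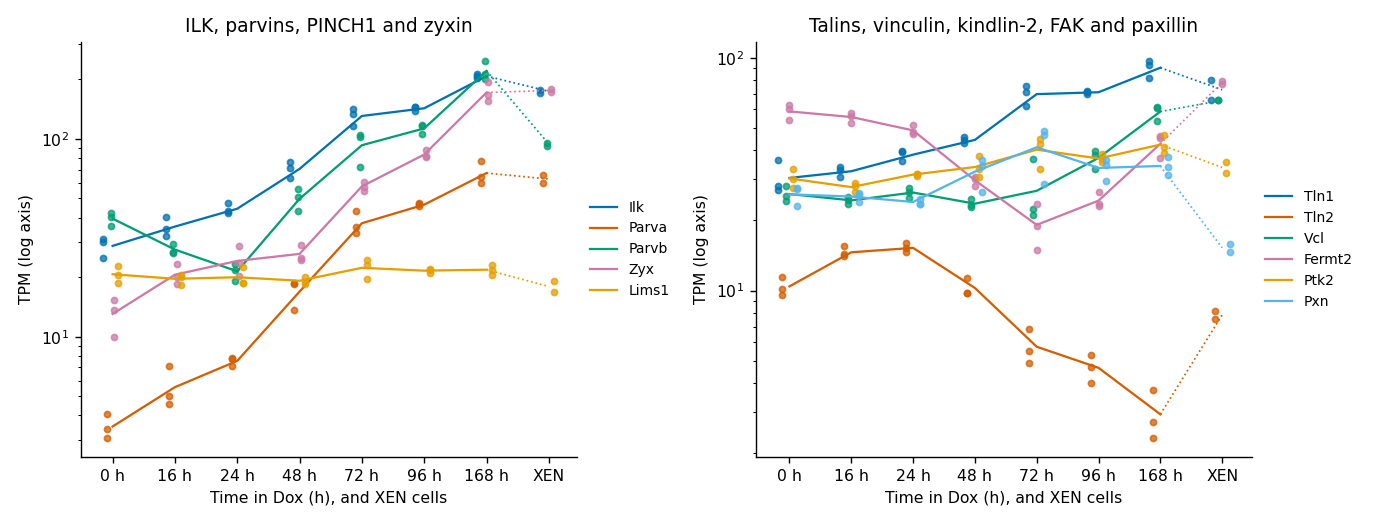
TPM (log axis) of ILK, parvin, PINCH1 and zyxin genes (left) and of talin, vinculin, kindlin-2, focal adhesion kinase and paxillin genes (right) in each library (points), with solid lines through the group means of the Dox course and dotted lines to XEN cells. Parva rises from between 3.09 and 4.06 TPM at 0 h to between 60.1 and 77.0 TPM at 168 h, and Lims1 stays near 20 TPM.

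XEN cells were compared with 168 h directly, with 5 members higher (4.73% of all genes) and 3 lower (9.17%). The higher ones were Itga3, Itga6, Itgb1, Itgb5 and Tln2 and the lower ones Itga5, Parvb and Pxn. Against the 0 h libraries that both groups share, Itga11 and Tln2 were called at 168 h and not in XEN cells, and Itga3 and Itgb5 in XEN cells and not at 168 h. Of these, Itga3, Itgb5 and Tln2 also differed between XEN cells and 168 h.

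The ligands and partners of these receptors were read beside them, from lists drawn up with earlier results known. Of 40 tested ligands of integrins and dystroglycan, which include matrix proteins and cell surface partners, 22 were higher at 168 h (55%, beside 22.6% of all genes) and 6 lower (15%, beside 16.5%), with a median log2 fold change of 1.14 beside 0.09 over all genes. The largest rises were in the collagen IV and laminin beta1 chains Col4a1, Col4a2 and Lamb1. Col4a1 was at 11.2 ± 0.814 TPM (SD, n = 3) at 0 h and 7706 ± 179 TPM (SD, n = 3) at 168 h, Col4a2 at 5.79 ± 1.94 TPM (SD, n = 3) at 0 h and 3849 ± 55.7 TPM (SD, n = 3) at 168 h, and Lamb1 at 29.5 ± 1.68 TPM (SD, n = 3) at 0 h and 4162 ± 45.4 TPM (SD, n = 3) at 168 h. Their log2 fold changes, with limma adjusted p in parentheses, were 9.30 (4.85e-20), 9.19 (1.44e-18) and 7.10 (1.13e-18). The largest falls were in Cdh1, Icam1 and Spp1, which encode E-cadherin, the LFA-1 ligand ICAM-1 and osteopontin, at -3.21 (3.13e-14), -3.16 (1.92e-12) and -3.02 (2.45e-10).

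Of 83 other focal adhesion genes tested, 32 were higher at 168 h (38.6%, beside 22.6% of all genes) and 8 lower (9.64%, beside 16.5%), with a median of 0.80. The largest rises were in the tensin Tns4, the urokinase receptor Plaur and the LIM protein Fhl2. Tns4 was at 0.450 ± 0.544 TPM (SD, n = 3) at 0 h and 32.4 ± 7.79 TPM (SD, n = 3) at 168 h, Plaur at 17.7 ± 1.48 TPM (SD, n = 3) at 0 h and 266 ± 29.9 TPM (SD, n = 3) at 168 h, and Fhl2 at 2.71 ± 0.324 TPM (SD, n = 3) at 0 h and 43.2 ± 6.27 TPM (SD, n = 3) at 168 h. Their log2 fold changes, with limma adjusted p in parentheses, were 4.56 (8.03e-13), 3.83 (7.29e-17) and 3.57 (1.61e-14). The largest falls were in Fblim1, a filamin-binding LIM protein, Elmo1 and Rasip1, at -3.72 (6.72e-13), -2.87 (5.87e-11) and -2.83 (2.89e-13).

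Of 21 tested genes of the dystroglycan complex and its glycosylation, 6 were higher at 168 h (28.6%, beside 22.6% of all genes) and 4 lower (19.0%, beside 16.5%), shares near those of all genes, with a median of 0.27. The largest rises were in Sgce, a sarcoglycan, and in Pomt2 and B4gat1, which build the laminin-binding sugar of dystroglycan, at 2.90 (1.63e-10), 2.03 (1.40e-12) and 1.999 (1.99e-12). Among the genes that fell were Dmd and Dtna, which encode dystrophin and a dystrobrevin, at -2.49 (6.79e-12) and -1.84 (5.37e-07).

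Residual feeder fibroblasts were examined because fibroblasts express many adhesion genes. The sum over 25 fibroblast markers was 253 to 555 TPM at 0 h, 443 to 708 TPM at 16 h, 528 to 652 TPM at 24 h, 271 to 387 TPM at 48 h, 162 to 638 TPM at 72 h, 280.1 to 441 TPM at 96 h, 313 to 616 TPM at 168 h and 863 to 864 TPM in XEN cells. At 168 h, 11 of the 23 tested ones had risen (47.8%, beside 22.6% of all genes) and 1 had fallen (4.35%, beside 16.5%). Among the risen ones, Col3a1 was at a mean of 5.45 TPM at 0 h and 46.8 TPM at 168 h. Means of Col1a1 and Col1a2 went from 19.5 and 22.1 TPM at 0 h to 46.7 and 51.8 TPM at 168 h. Those of S100a4, Acta2 and Tagln went from 156, 41.6 and 46.3 TPM to 44.8, 24.9 and 23.3 TPM. Dpt and Fap stayed near 0, at no more than 1.02 and 0.578 TPM in any library. The summed level overlapped between 0 h and 168 h, but such opposite moves offset each other in it. The 168 h library with the highest sum, the third, held the lowest Itga5 and Itga11 of that group and the highest Itgav, Parva, Parvb and Zyx. It also held the lowest Itga3, Itga6, Itgb1 and Tln2, and differed in Pou5f1, at 112 TPM against 39.1 and 39.1 TPM. At 72 h the third library stood apart, with 638 TPM against 162 and 186 TPM, and with Vcl and Itga3 higher than in the others and Itga5, Itga6, Parvb and Pxn lower. Leaving it out gave 14 members called at 72 h in place of 13. What part fibroblasts have in these levels was not tested.

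The siRNA table held 14 of the 40 genes, all of them among the 6275 that the study listed as responding to GATA6, and the others were not analysed there. Pou5f1 was between 782 and 1194 TPM with siCTL and between 282 and 387 TPM with siOct4. The groups did not overlap (two-sided exact permutation p = 0.00216 without pairing, the smallest possible), and Pou5f1 was lower in 6 of 6 pairs of the same library number (paired two-sided exact permutation p = 0.0312, also the smallest possible). None of the 14 members was called with siOct4 at a limma adjusted p under 0.05 and a log2 change above 0.5, against 0.942% of 6264 genes higher and 1.72% lower. The study, which tested read counts with DESeq2, reported more changed genes than were called here. A member without a call is therefore not shown to be unchanged. At an unadjusted p under 0.05 limma gave 1 of 14 (Itga5; 13.8% of all genes), as did the exact permutation test.

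The libraries of each siRNA group varied widely, and libraries of the same number deviated together. So did neighbouring numbers of the same siRNA (1 and 2, 3 and 4, 5 and 6), except siCTL 3 and 4 (r of -0.07). With siCTL, Itga6 measured 35.5, 30.98, 6.33, 18.7, 91.5 and 77.7 TPM (libraries in the order of their numbers), and with siOct4 49.7, 31.2, 13.998, 23.7, 127 and 115 TPM. It was higher with siOct4 in all 6 pairs, although the groups overlapped almost wholly. The mean difference was 0.48 on the log2 scale (SE 0.626, limma adjusted p = 0.802), and with the pairs as a block the adjusted p was 0.0656. With the block and either the gene length trend removed or median-of-ratios rescaling Itga6 was called higher (0.66, adjusted p = 0.00832, and 0.63, adjusted p = 0.0121). With neighbouring numbers averaged and these 3 sets as the block, Itga6 was not called in the same 2 settings (0.66, adjusted p = 0.111, and 0.62, adjusted p = 0.119).

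Itga5 was at 34.8, 37.5, 38.9, 95.6, 45.1 and 42.04 TPM with siCTL and at 29.4, 19.7, 19.7, 28.3, 44.3 and 41.3 TPM with siOct4. It was lower in all 6 pairs, with little difference in pairs 5 and 6, and the groups overlapped. The mean log2 difference was -0.64 (SE 0.268, limma adjusted p = 0.288, unadjusted two-sided exact permutation p = 0.0411), and with the pairs as a block the adjusted p was 0.0903. Itgb1 was between 120 and 282 TPM with siCTL and between 161 and 276 TPM with siOct4, higher in 4 of 6 pairs (log2 difference 0.33, limma adjusted p = 0.519). Ilk was higher in 5 of 6 pairs (0.26, limma adjusted p = 0.592). The other 10 members had log2 differences between -0.23 and 0.38 and adjusted p of at least 0.705.

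**Figure D5:**
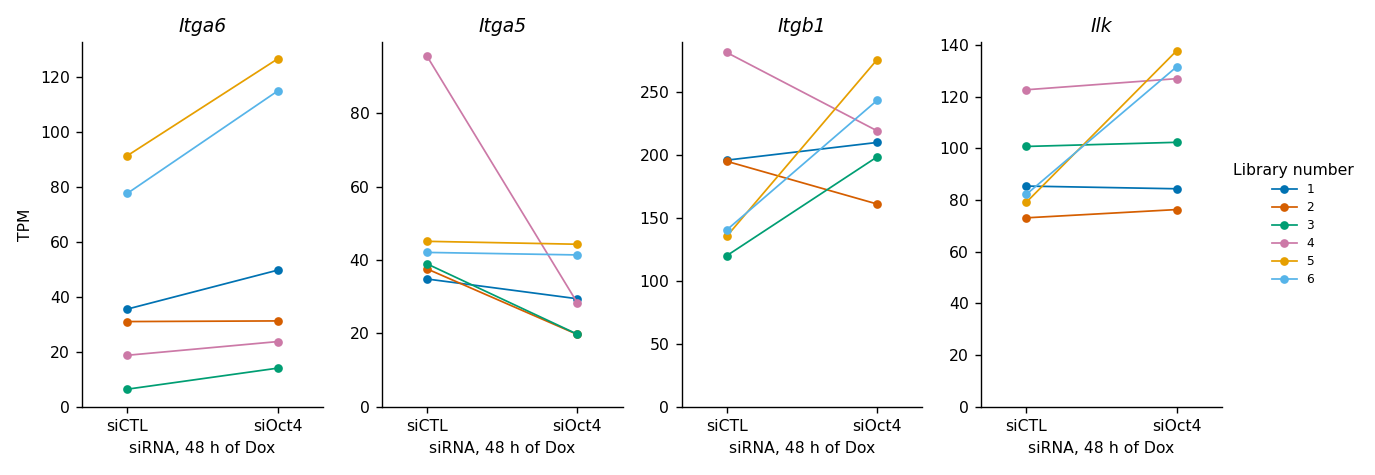
TPM of Itga6, Itga5, Itgb1 and Ilk after 48 h of Dox with siCTL or siOct4, each line joining the libraries of the same number (1 to 6). Every Itga6 line goes up and every Itga5 line goes down, while the spread between library numbers exceeds the change within most pairs.

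Library 4 of siCTL stood apart, with Gata6 at 198 TPM against 92.6 to 112 TPM in the other siCTL libraries. It held the highest level of its group for 13 of the 14 members, all but Itga6. Summed over all genes of the siRNA table it also held the most TPM, 355895.1 against 279844.4 to 321736.5 in the other siCTL libraries. How many of all genes were highest in this library was not counted. Across genes, its values rose with gene length and those of siCTL library 3 fell with it (slopes of 0.19 and -0.21 on the log2 scale per doubling of length). Leaving out any single library, or both of these, left 0 members called. The sum over the 11 fibroblast markers of the siRNA table ran from 99.7 to 514 TPM with siCTL and from 106 to 640.0 TPM with siOct4, and its part in these values was not tested.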

How the data were processed

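RNA was extracted after feeder depletion, a step the study describes for the inducible cells and not for XEN cells. Stranded polyA libraries were sequenced in paired-end mode. The authors demultiplexed with bcl2fastq, trimmed with cutadapt, aligned to mm10 with STAR, quantified with RSEM and deposited TPM, after leaving out outliers seen in a principal component analysis. Tool versions were not given in the sources used here. The siRNA table holds only genes the authors listed as responsive, with text classes from their own tests that were not used. TPM keep no depth, so precision is read from replicate spread.

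Where 60 symbols stood on several rows, only the most abundant row was used. Values were taken as log2(TPM + 1), so fold changes of low genes are understated. Genes with a group mean of at least 1 TPM were tested with limma 3.58.1 in R 4.3.3 (eBayes with trend and robust options, 1 coefficient per group over all 23 or 12 libraries), with Benjamini-Hochberg adjustment over 15057 or 6264 genes. The study describes the induction replicates and the knockdown experiments as independent. In the siRNA series same-numbered libraries deviated together (r from 0.236 to 0.707 in 6 pairs), and the numbers were used as pairs. Unlike numbers of the 2 siRNAs had a mean r of -0.06 over 30 pairs. Some were as close as same numbers, such as siCTL 3 with siOct4 4 (0.459) and siCTL 2 with siOct4 1 (0.339). These values therefore do not establish the pairing by number. Neighbouring numbers of the same siRNA (1 and 2, 3 and 4, 5 and 6) also deviated together (r from 0.313 to 0.707), except siCTL 3 and 4 (-0.07). The 6 pairs may thus not be 6 separate units. In the induction series same-numbered libraries did not deviate together (mean r 0.03). On simulated data, changes of 1.5 on the log2 scale were recovered in 96% of cases at 168 h among 13661 genes and in 91% with siOct4 among 6216 genes, with 3 and 8 unchanged genes called, and smaller changes were not simulated. The changed genes all had a mean above 2 on the log2(TPM + 1) scale, and noise was drawn independently for each library. These rates therefore do not cover lower genes or libraries that deviate together. Alternatives were median-of-ratios rescaling, other filters, thresholds and pseudocounts, the replicate block, removal of the gene length trend, averages of neighbouring siRNA libraries and each library left out, and some were chosen after seeing the data. Every member called in any comparison is given with its libraries at 0 h or at the time that matters, the others by range. From each list of partners the 3 largest rises and 3 largest falls are named, except for 1 gene that is not reported here. Gene spans are from GENCODE M21. The members, lists and tests were chosen with earlier results of these data known.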

Additional observations from a re-analysis of the deposited data

Results flagged for a closer look

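In the siRNA series, 30 sets of 6 libraries were searched for single libraries lying far away from their group, and 5 sets held one, where 1 in 20 would be marked by chance. The sets are genes measured in the same libraries, so the 5 do not count as separate finds. In all 5 it was library 4 of siCTL, which held the highest level of its group for 13 of the 14 members (all but Itga6), among them Itga9 and Tln2, which fell with Dox in the induction series. That library also held the highest summed TPM of its group, and the share of all genes highest in it was not counted. On the log2(TPM + 1) scale Itga5 was at 6.59 in that library (95.6 TPM) and at 5.16 to 5.53 in the others. Itgav was at 5.23 (36.5 TPM), with the others at 3.96 to 4.40. Parva was at 6.32 (78.8 TPM), with the others at 4.39 to 4.92. Parvb was at 7.03 (130.0 TPM), with the others at 5.53 to 5.95. Zyx was at 6.09 (66.9 TPM), with the others at 4.18 to 4.59. The same library held the highest Gata6 of the group, at 198 TPM, and the steepest positive trend with gene length, and their part in these values was not tested. The counts of members called with siOct4 were 0 with and without it.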

How the results depend on the processing

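Of the 1171 repeats of the 75 member calls under the alternatives, 1153 kept the call, 18 lost it and none changed direction. The 18 concerned Itgb7 at 16 h, Vcl at 168 h, Tln2 at 96 h, and Pxn and Itgb1 in XEN cells against 168 h. With no fold minimum, 10, 15, 17 and 21 members were called at 16, 24, 48 and 72 h, in place of 1, 1, 7 and 13. These are 33.3%, 50%, 56.7% and 70% of the tested members, beside 12.9%, 28.5%, 53.7% and 65.6% of all genes. In XEN cells against 168 h, 16 were called in place of 8 (53.3% beside 49.98%). At 96 h and 168 h and in XEN cells against 0 h, 20, 21 and 22 were called, in place of 15 each. Those are 66.7%, 70% and 73.3% of the members, beside 67.3%, 74.96% and 71.2% of all genes. The member share was thus below that of all genes at 96 and 168 h. At 16 h none was called at an adjusted p under 0.01, without the filter on low values, or at a pseudocount of 0.1, and at 24 h that pseudocount gave 2. Leaving out 1 library gave 0 to 1 calls at 16 h, 1 to 2 at 24 h, 7 to 9 at 48 h, 13 to 14 at 72 h, 14 to 16 at 96 h, 15 to 16 at 168 h, 15 to 16 in XEN cells against 0 h, 8 to 9 against 168 h and 0 with siOct4. With siOct4 the replicate block alone called 0 members, and 1 (Itga6) was called with the block and the gene length trend removed, with the block and median-of-ratios rescaling, or with all of these together, where the all-gene counts rose from 167 to between 602 and 634. Averaging neighbouring numbers called 0 members and 0 genes in all, and with these sets as a replicate block 0 members and 160 to 203 genes, alternatives chosen after seeing the data. With 3 sets a group fewer libraries enter these fits. The exact permutation test gave 1 member, unadjusted. In the induction series the numbers share no batch in the labels, and the block changed 1 call, Itgb1 in XEN cells against 168 h, to a log2 difference of 0.98. Rescaling moved the median of all genes at 168 h from 0.09 to -0.05 and that of the members from 0.08 to -0.05, and in XEN cells against 168 h moved the median of all genes from -0.14 to -0.02. In the siRNA series the median moved from -0.12 to 0.01. After rescaling, 27 other focal adhesion genes were higher and 9 lower at 168 h, against 32 and 8, while ligands stood at 20 and 6, and dystroglycan complex genes at 6 and 5.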
